A study of Mus musculus with 22 samples.

Results

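Back skin of K14-DN-CLIM transgenic mice was compared with that of wild-type littermates on postnatal day 23 (P23), in the first telogen, when the hair follicles rest. The comparison used 6 of the 22 arrays of the series, the 3 labelled transgenic and the 3 labelled wild type at P23, across the 12422 probe sets that are not array controls. The transgene product DN-CLIM blocks the CLIM cofactors, also called Ldb proteins, in a dominant-negative way. It is driven by the promoter of the keratin 14 gene, which is active in basal keratinocytes and in the outer cells of the follicle. The mice were of the CB6F1 strain, and the wild-type group carried no transgene. Total RNA came from whole back skin, so fewer cells of a type and less RNA per cell cannot be told apart in these values. The design text gives 3 to 5 mice of each genotype per age, the range of arrays per group, but no label names the mouse behind an array, and the p-values measure the spread between arrays.

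CLIM proteins have no enzymatic activity and do not bind DNA. They hold together complexes of LIM homeodomain and LIM-only proteins on chromatin, and the dominant-negative form occupies the LIM domains without building the complex. In telogen the follicle is reduced to a club hair held by the bulge, where the stem cells sit, with the hair germ and the dermal papilla beneath. Hedgehog signalling from nerves and from the hair germ, activin and BMP signals, and contact with the basement membrane all act on these cells. The keratins of hair growth are silent at this stage, while the interfollicular epidermis renews itself and forms the cornified barrier.

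The 6 arrays were alike in overall signal. Their medians lay between log2 7.78 and 7.81, and the mean correlation of an array with the others of its group was 0.972 to 0.982. From levels of the X-inactivation transcript, 1 array of each genotype (replicate 1 in both) was classed as female and 2 as male. Hair shaft genes, which mark follicles in growth, were low at this age. Their 25 tested members had a median log2 difference of -6.56 between P23 and P14 in wild type and of -6.59 in transgenic skin. The Krt5, Krt14 and Krt15 probe sets, which would mark basal and bulge keratinocytes, were too dim to test and do not check the cell type, with Krt14 between 12.6 and 70.2 on the 6 arrays. The epidermal gene Krt1 (4313 to 9048), the dermal gene Col1a1 (21920 to 25990) and the muscle gene Acta1 (19715 to 24576) were bright on all 6.

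At P23, transgenic skin had more transcript of 2 keratinocyte genes of stress and cornification (Sprr1a and Krt16), of the carbonic anhydrase Car12 and of the polycomb partner Aebp2. It had less of the hedgehog effector Gli1, of follistatin (Fst), of the basement membrane protein nephronectin (Npnt), of basonuclin 1 (Bnc1) and of the hair protein gene Krtap3-1. These 9 genes, with a further probe set that the annotation assigns to several genes (0.76 higher on the log2 scale, adjusted p = 0.0459), were the 10 of 6211 tested probe sets past an adjusted p of 0.05 in limma. That is 0.161% of those tested, 5 higher (0.0805%) and 5 lower (0.0805%). For each of the 9 genes the 3 transgenic arrays lay on one side of the 3 wild-type arrays, which was so for 14.9% of all tested probe sets. This follows largely from their choice by p in the same contrast and is not further evidence. At an unadjusted p under 0.05 there were 284 probe sets, or 4.57%.

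**Figure D1:**
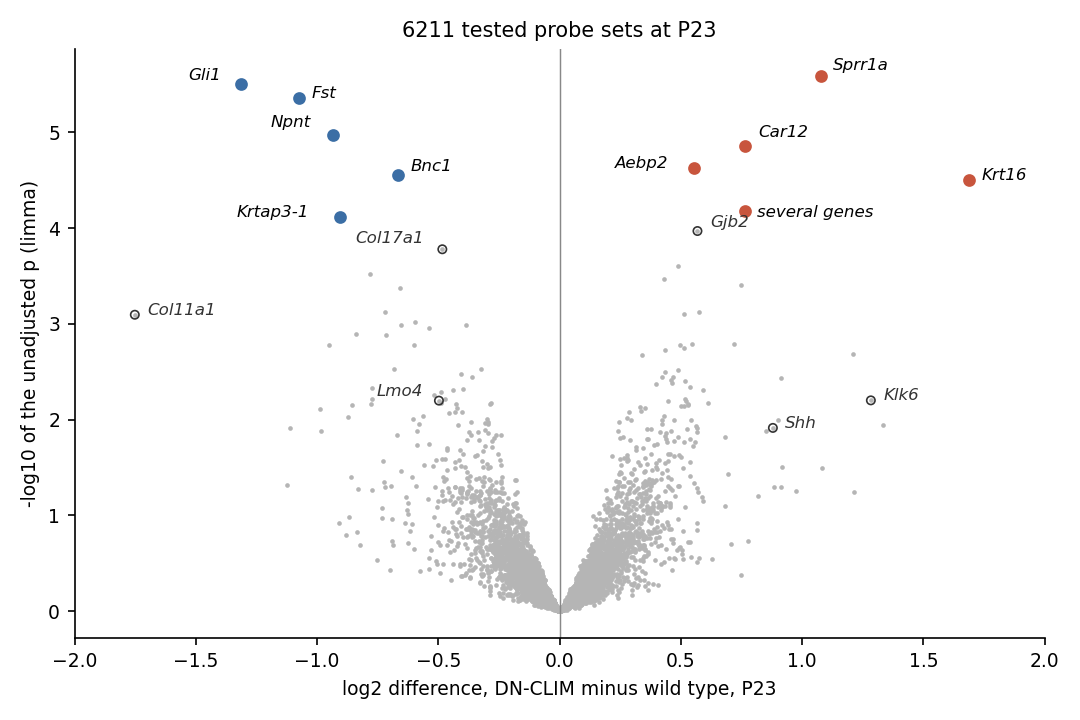
Log2 difference, transgenic minus wild type at P23 (x axis), against minus log10 of the unadjusted p from limma (y axis), 1 point for each of the 6211 tested probe sets. The 10 past the adjusted threshold are coloured, 5 on each side, and open circles mark Gjb2, Col17a1, Col11a1, Klk6, Shh and Lmo4, which did not pass.

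Sprr1a encodes a small proline-rich protein that is cross-linked into the cornified envelope and is induced when the epidermis is stressed. Its signal was 3034, 2949 and 2614 on wild-type replicates 1 to 3 and 4532, 6784 and 7134 on transgenic replicates 1 to 3. All 3 transgenic arrays were higher, the first by the least. Sprr1a rose 2.11-fold, by 1.08 ± 0.17 on the log2 scale (difference ± SE), with an adjusted p = 0.00898 by limma. Krt16, a keratin that marks wounded and hyperproliferative epidermis, read 74.9, 113 and 82.8 in wild type and 162, 400 and 363 in transgenic skin. Again the first transgenic array was the lowest of its group and still above every wild-type array. Krt16 rose 3.23-fold (1.69 ± 0.32, adjusted p = 0.0242). Sprr1a missed the threshold without wild-type replicate 3 (adjusted p = 0.0635) or transgenic replicate 2 (0.0507), and Krt16 missed it in 4 of the 6 runs without 1 array (0.222 and 0.109 without wild-type 1 and 3, 0.219 and 0.194 without transgenic 2 and 3). In a fit of only the 6 arrays of P23 neither gene passed (adjusted p = 0.108 for Sprr1a and 0.214 for Krt16).

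The 250 bases before the start of Sprr1a (RefSeq, GRCm38.p6, chr3:92485882-92486131, minus strand) hold 2 matches to TGANTCA, the element of the AP-1 factors that act on stress and differentiation genes of keratinocytes. The matches, in capitals, begin 146 and 116 bases before the start. The window of its neighbour Sprr1b (chr3:92438780-92439029, minus strand) is shown for comparison, since its brighter probe set stood at a log2 difference of 0.03. A dimmer Sprr1b probe set stood at 1.21 (adjusted p = 0.364 in limma), so whether Sprr1b was unchanged depends on the probe set. The Sprr1b window has 1 match to TGANTCA (111 bases before the start) and 1 to TAATTA, the core bound by LIM homeodomain proteins (193 bases before it), both in capitals.
Sprr1a: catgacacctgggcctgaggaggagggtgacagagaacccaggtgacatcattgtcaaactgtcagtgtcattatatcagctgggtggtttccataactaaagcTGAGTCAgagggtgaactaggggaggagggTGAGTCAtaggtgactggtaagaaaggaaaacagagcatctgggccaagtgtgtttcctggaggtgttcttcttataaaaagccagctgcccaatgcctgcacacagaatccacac
Sprr1b: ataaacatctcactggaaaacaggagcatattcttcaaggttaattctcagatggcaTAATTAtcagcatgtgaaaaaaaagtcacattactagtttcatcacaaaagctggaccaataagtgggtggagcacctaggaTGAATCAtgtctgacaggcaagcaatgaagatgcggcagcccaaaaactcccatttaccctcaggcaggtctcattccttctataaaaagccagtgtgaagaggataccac
Both strands were searched, and the 2 motifs do not overlap in these windows. TGANTCA occurred in 6.75% and TAATTA in 4.84% of all 32851 windows of the same length. Of the 19 tested stress genes of keratinocytes 12 had a window, and 9 of these (75%) held TGANTCA, 7 of them members of the related Sprr family. It occurred in 6 of 17 windows of epidermal differentiation genes (35.3%), in 0 of 18 of bulge genes and in 248 of 3973 of all tested genes (6.24%). A match describes the sequence and is not evidence of binding.

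Sprr1a and Krt16 belong to a list of keratinocyte genes of stress and wound healing, of which 19 were tested. At P23, 16 of the 19 were higher in transgenic skin and 3 lower; 2 rose, 0 fell and 17 did not pass. The median log2 difference was 0.40, against 0.002 over all 4900 tested genes, and the same list had medians of 0.003 at P6 and -0.02 at P14. The list's mean log2 signal ran from 9.50 to 9.71 on the wild-type arrays and from 9.79 to 10.11 on the transgenic arrays, so the genotypes did not overlap. Transgenic arrays lay above all wild-type arrays for 9 members and below them for 1, where 7.71% and 7.21% of all tested probe sets did so. The list was put together with earlier results of these samples known, so its direction is not independent evidence.

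Among the members that did not pass, the companion keratins of Krt16 came next. Krt17, a keratin of the follicle and of injured epidermis, read 3005, 3440 and 3828 in wild type and 4428, 5139 and 5042 in transgenic skin (log2 difference 0.51, adjusted p = 0.339). Krt6b read 556, 546 and 481 against 669, 811 and 794 (0.52), and Krt6a 7151, 7495 and 7351 against 8533, 9601 and 10176 (0.36). All 3 keratins separated the genotypes without passing the test. Sprr1b did not separate them at its brighter probe set (6617, 6156 and 4546 against 5621, 6030 and 5781, log2 difference 0.03), while a dimmer probe set of the same gene stood at 1.21. S100a8, an alarmin of inflamed epidermis, read 246, 181 and 189 against 140, 388 and 350, so the first transgenic array was the lowest of all 6 and the other 2 were the highest.

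**Figure D2:**
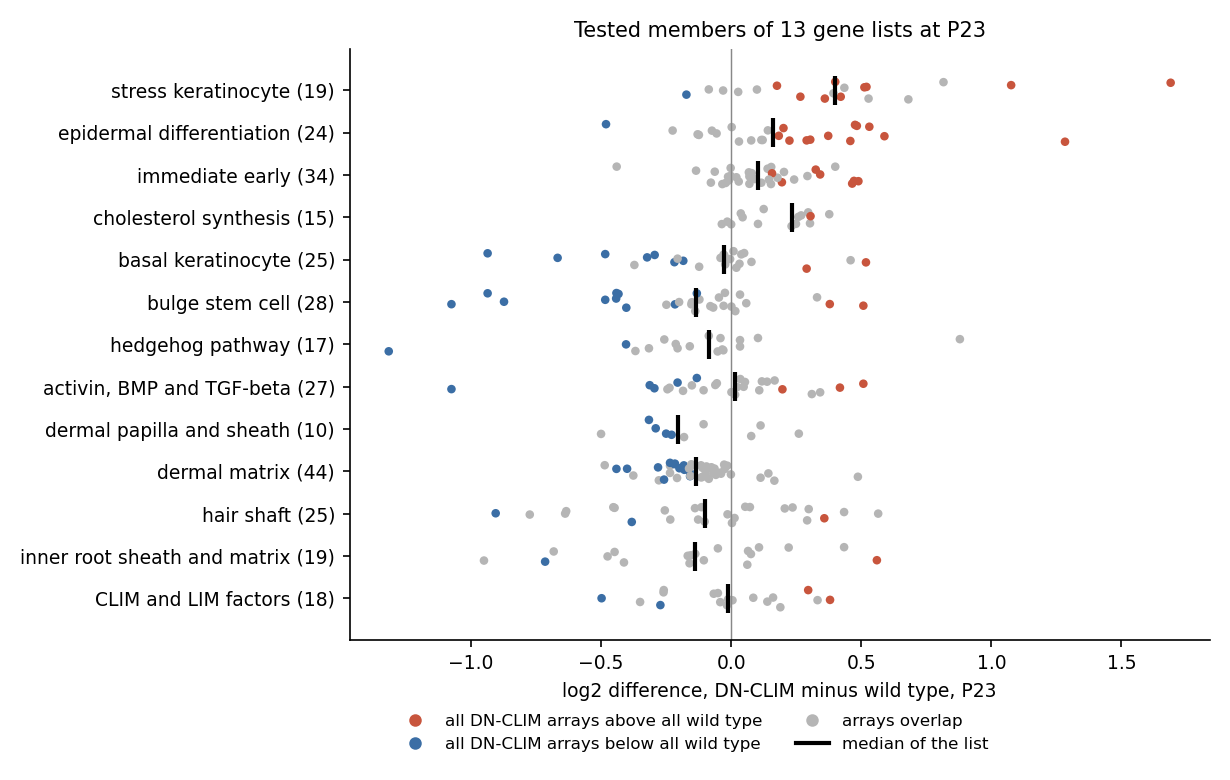
Log2 difference, transgenic minus wild type at P23 (x axis), for the tested members of 13 gene lists (rows), 1 point per gene. Colour shows whether the transgenic arrays lay wholly above, wholly below or among the wild-type arrays, and the black bar is the list's median, 0.40 for the stress list and -0.135 for the bulge list.

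Genes of epidermal differentiation leaned the same way by less. Of 24 tested, 18 were higher and 6 lower, with a median of 0.16, and 0 passed in either direction; 12 lay wholly above and 1 wholly below wild type (50% and 4.17%, against 7.71% and 7.21% of all tested probe sets). Filaggrin (Flg), which aggregates keratin filaments in the granular layer, read 2056, 2256 and 1965 in wild type and 2566, 3003 and 4024 in transgenic skin (0.59, adjusted p = 0.571). Krt1, the first keratin of the spinous layer, read 4313, 6104 and 6897 against 7442, 8134 and 9048 (0.53), and corneodesmosin (Cdsn), an adhesive protein of the cornified layer, 4487, 4296 and 4772 against 6451, 6023 and 6136 (0.46). Krt10, the partner of Krt1, did not follow it and stood at -0.23 with overlapping arrays. The protease gene Klk6 had one of the larger differences (1.28, SE 0.42, adjusted p = 0.603), with 205, 174 and 193 in wild type and 235, 676 and 625 in transgenic skin. As for Krt16 and S100a8, the first transgenic array was the low one.

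Gli1 is both a transcription factor of the hedgehog pathway and a target of it, so its transcript is widely used as a readout of the pathway. It read 259, 253 and 237 in wild type and 108, 102 and 91.3 in transgenic skin. The 2 groups were tight and lay far apart. Gli1 fell 2.49-fold, with a log2 difference of -1.32 ± 0.21 (SE) and an adjusted p = 0.00898 by limma. It stayed past the threshold whichever of the 6 arrays was left out (adjusted p up to 0.049). It did not pass with the replicate number as a block (0.0539). Nor did it pass in a fit of only the P14 and P23 arrays (0.0563), an alternative chosen after seeing the data.

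Of 17 tested hedgehog pathway genes 4 were higher and 13 lower, with a median of -0.086; Gli1 alone passed and 0 rose. Gli1 was also 1 of the 2 that lay wholly below wild type, 11.8% of the list against 7.21% of all tested probe sets. The other was Ptch1, the receptor and a target gene, with 400, 470 and 486 in wild type and 319, 351 and 353 in transgenic skin (-0.40, adjusted p = 0.634); a second Ptch1 probe set stood at 0.15. The ligand gene Shh read 32.4, 110 and 105 against 142, 104 and 157 (0.88, adjusted p = 0.705), with overlapping and dim signals. Without 1 array the Shh difference ran from 0.302 (without wild-type replicate 1) to 1.181. Smo, the transducer, was at -0.05 (367, 506 and 436 against 394, 429 and 431). Gli2 and Gli3, the other GLI factors, were below the brightness limit of the test, at 138, 200 and 197 against 149, 149 and 125 for Gli2 and 117, 115 and 110 against 145, 121 and 118 for Gli3. Of the 8 pathway genes too dim to test, 2 lay wholly above wild type, Gli3 among them, and 0 wholly below. Dhh, the ligand made by Schwann cells, read 555, 729 and 430 against 598, 492 and 380 (-0.21).

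Follistatin is a secreted protein that binds and blocks activin and some BMPs, and it is made by bulge and outer root sheath cells. Fst read 725, 656 and 725 in wild type and 312, 369 and 321 in transgenic skin, with no overlap. Fst fell 2.11-fold, with a log2 difference of -1.07 ± 0.18 (SE) and an adjusted p = 0.00898 by limma. It missed the threshold without wild-type replicate 3 (adjusted p = 0.0635) or transgenic replicate 1 (0.0532). Of the 27 tested genes of activin, BMP and TGF-beta signalling 15 were higher and 12 lower, with a median of 0.015, and Fst was the only one to pass. The activin receptor genes Acvr2a (0.04) and Acvr2b (-0.06) overlapped between the genotypes, and the activin subunit genes Inhba and Inhbb were too dim to test. Smad1, which carries BMP signals to the nucleus, read 1341, 1384 and 1361 against 1014, 1035 and 1302 (-0.29, adjusted p = 0.685), and the latent TGF-beta binding protein gene Ltbp2 read 325, 332 and 376 against 474, 473 and 520 (0.51, adjusted p = 0.961).

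**Figure D3:**
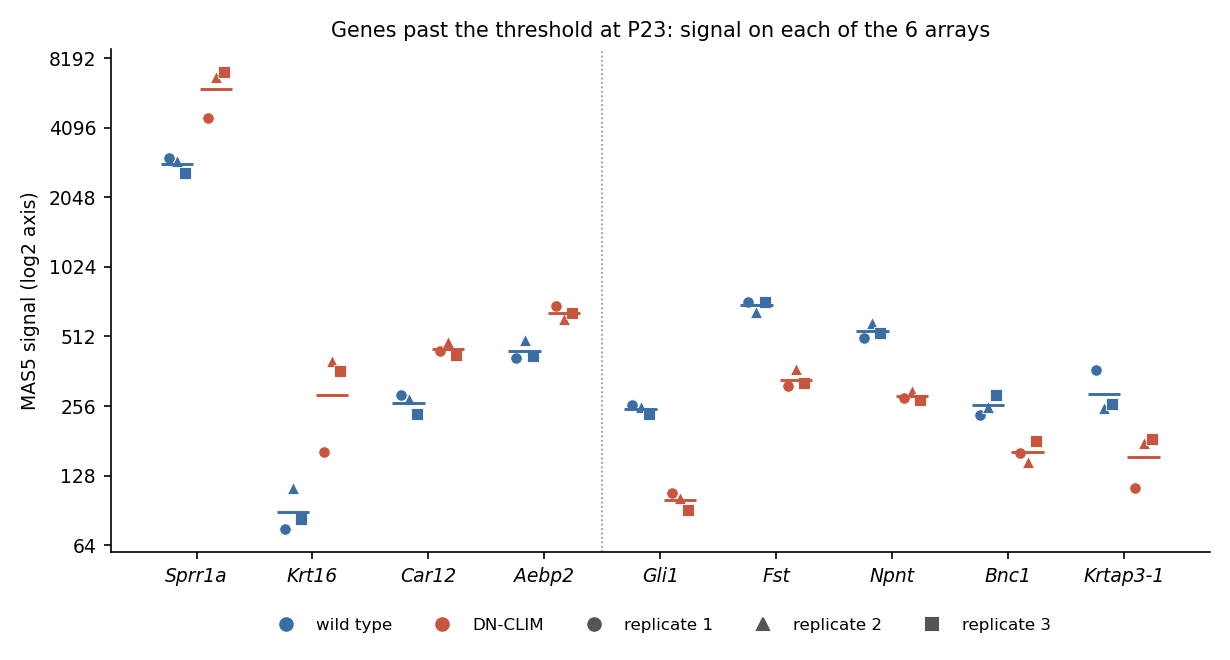
Signal on each of the 6 arrays at P23 (y axis, log2 scale) for the 9 genes past the threshold (x axis), wild type beside transgenic. Shapes give the replicate number, horizontal bars the means of the log2 values, and the dotted line parts the 4 genes that rose from the 5 that fell; no gene has overlapping groups.

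Nephronectin and basonuclin 1 are products of the cells that carry the transgene. Npnt encodes a ligand of integrin alpha 8 beta 1 that bulge cells place in the basement membrane, where it anchors the arrector pili muscle. It read 503, 586 and 531 in wild type and 278, 297 and 271 in transgenic skin. Each transgenic array was well below each wild-type array. Npnt fell 1.91-fold, with a log2 difference of -0.94 ± 0.17 (SE) and an adjusted p = 0.0166 by limma. Itga8, the integrin subunit of the muscle side, was too dim to test, at 33.2, 50.8 and 29.3 against 19.7, 29.2 and 26.3. Bnc1, a zinc finger protein of basal keratinocytes, read 234, 254 and 287 against 161, 147 and 181. It fell 1.59-fold (-0.67 ± 0.13, adjusted p = 0.0242). Npnt passed with wild-type replicate 1 left out (0.0429) and missed the threshold in the other 5 runs without 1 array (0.0501 without wild-type replicate 2, 0.0667 without wild-type 3, and 0.0632, 0.0507 and 0.0678 without transgenic 1, 2 and 3). Bnc1 missed it without wild-type replicate 3 (0.13) or transgenic replicate 1 (0.0963) or 2 (0.182).

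Close to the threshold, after Gjb2, stood Col17a1, the transmembrane collagen of the hemidesmosome, which ties basal cells to the basement membrane and is needed to keep bulge stem cells. It read 7428, 6767 and 6610 in wild type and 5044, 4715 and 5110 in transgenic skin (-0.48, SE 0.11, adjusted p = 0.0859), with all transgenic arrays lower. The basement membrane collagens also lay lower on every transgenic array, Col4a1 with 3785, 3716 and 3855 against 2987, 3109 and 2984 (-0.32, adjusted p = 0.481) and Col4a2 at -0.29. The integrin and laminin genes of the same layer did not separate, among them Itga6 (-0.03), Itgb4 (0.02) and Lamb3 (0.04). Over the 25 tested genes of basal keratinocytes 9 were higher and 16 lower, with a median of -0.029; 2 fell, 0 rose, and 7 (28%) lay wholly below and 2 (8%) wholly above wild type, against 7.21% and 7.71% of all tested probe sets.

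The list of bulge stem cell genes, which shares Fst, Npnt and Col17a1 with the lists above, was lower in 21 of 28 members and higher in 7, with a median of -0.135; 2 fell (Fst and Npnt) and 0 rose. Wholly below wild type lay 10 (35.7%, against 7.21% of all tested probe sets) and wholly above it 2 (7.14%, against 7.71%). Its mean log2 signal was 10.16 to 10.18 on the wild-type arrays and 9.958 to 9.998 on the transgenic arrays. This mean includes Fst, Npnt and Col17a1, and the list was chosen with earlier results of these data known. Its direction is therefore not independent evidence. The gene of the secreted Dickkopf protein Dkk3 read 525, 507 and 542 against 383, 392 and 384 (-0.44, adjusted p = 0.571), and the chemokine gene Cxcl14 read 479, 544 and 459 against 253, 277 and 277 (-0.87, SE 0.31, adjusted p = 0.668). Neither passed, though Cxcl14 did with array weights (0.0342) and in the fit of only the P14 and P23 arrays (0.0365). Cd34, a surface marker of the bulge, was at -0.20 at its brighter probe set, with 1601, 1894 and 2102 against 1612, 1621 and 1607, and at -0.33 at another. Nfatc1, a transcription factor that holds bulge stem cells in quiescence, stood on the other side, with 517, 480 and 447 against 631, 597 and 648 (0.38, adjusted p = 0.999). The mean levels of other cell types' markers are given below, and their part in the bulge values was not tested.

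Car12 encodes a membrane carbonic anhydrase, and Aebp2 a zinc finger partner of polycomb repressive complex 2, which silences genes through histone methylation. Car12 read 285, 275 and 237 in wild type and 441, 486 and 426 in transgenic skin, a rise of 1.70-fold (0.77 ± 0.14 on the log2 scale, adjusted p = 0.017 by limma). Aebp2 read 415, 495 and 423 against 696, 610 and 646, a rise of 1.47-fold (0.55 ± 0.10, adjusted p = 0.0242). Of 13 tested carbonic anhydrase and ion transport genes 4 were higher and 9 lower (median -0.058), and of 17 polycomb and chromatin genes 9 were higher and 8 lower (median 0.026); Car12 and Aebp2 were the only members past the threshold. Car12 missed the threshold without wild-type replicate 3 (0.104) or transgenic replicate 1 (0.0624) or 2 (0.122), and Aebp2 missed it in each run without 1 array but that without wild-type replicate 2 (0.212 without wild-type 1, 0.109 without wild-type 3, and 0.126, 0.0507 and 0.075 without transgenic 1, 2 and 3). Neither passed in the fit of the P23 arrays alone (0.115 and 0.218).

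Krtap3-1 encodes a keratin-associated protein of the hair shaft and was at its telogen low in both genotypes. It read 368, 251 and 262 in wild type and 113, 177 and 185 in transgenic skin, without overlap. Krtap3-1 fell 1.87-fold, with a log2 difference of -0.91 ± 0.19 (SE) and an adjusted p = 0.0475 by limma, and it missed the threshold in 4 of the 6 runs without 1 array (0.526 and 0.0924 without wild-type 1 and 3, 0.296 and 0.0859 without transgenic 1 and 2). Its window (RefSeq, GRCm38.p6, chr11:99566631-99566880, minus strand) was the one of the 6 called genes with a window that held TAATTA, in capitals, 124 bases before the start.
Krtap3-1: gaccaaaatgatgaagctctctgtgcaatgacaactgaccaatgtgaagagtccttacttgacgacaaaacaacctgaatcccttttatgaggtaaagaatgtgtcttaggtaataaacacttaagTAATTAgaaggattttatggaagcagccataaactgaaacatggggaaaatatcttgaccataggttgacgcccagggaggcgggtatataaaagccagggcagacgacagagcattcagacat
The windows of Npnt, Bnc1, Car12 and Aebp2 held neither TAATTA nor the AP-1 element, and they did not hold the GLI element GACCACCCA, which occurred in 0.225% of all windows. Of the 25 tested hair shaft genes, Krtap3-1 included, 11 were higher and 14 lower at P23 (median -0.10), with Krtap6-2 at -0.77 (92.3, 134 and 50.9 against 32, 62.4 and 63.1) and Krt32 at -0.38 (892, 980 and 704 against 636, 670 and 653). In the inner root sheath, Krt27 read 259, 167 and 211 against 138, 143 and 104 (-0.71, adjusted p = 0.297).

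Ldb1 and Ldb2, the genes of the cofactors that the transgene blocks, overlapped between the genotypes. Ldb1 read 634, 533 and 682 in wild type and 647, 640 and 665 in transgenic skin (0.09), and Ldb2 956, 1089 and 812 against 1039, 983 and 807 (-0.01). No source used here says which part of a CLIM transcript the transgene shares with these probe sets, and they therefore do not check the labels. Of 18 tested CLIM partners and LIM factors 8 were higher and 10 lower, with a median of -0.014 and 0 past the threshold. Lmo4, a LIM-only protein of epithelia that binds CLIM, read 1320, 1424 and 1433 against 949, 1039 and 971 (-0.50, SE 0.17, adjusted p = 0.603), with no overlap. With array weights, which give noisy arrays less say, Lmo4 was 1 of 44 probe sets called, 0.708% of those tested (adjusted p = 0.00802), and without transgenic P6 replicate 5, the array with the lowest weight (0.159), it had 0.00891. The latter setting was chosen after seeing the data.

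The differences at P23 were tested against the mean of the genotype differences at P6 and P14, the ages of follicle growth (5 arrays per genotype at P6, 3 at P14). P23 was the only telogen age and also the oldest, so telogen and age cannot be told apart here. Gli1 and Fst were the 2 of 6211 probe sets (0.0322%) whose difference at P23 departed from that mean. The Gli1 difference was close to 0 at P6 (0.10) and P14 (0.06) against -1.32 at P23, a departure of -1.40 (SE 0.25, adjusted p = 0.0438 in limma). That of Fst was 0.25, 0.06 and -1.07, a departure of -1.23 (SE 0.21, adjusted p = 0.0437). Against P6 alone Fst departed by -1.32, the 1 probe set called there (0.0161%), and against P14 alone 0 probe sets were called. In wild type Fst was 1.02 higher (log2) at P23 than at P14, and the transgenic level at P23 (mean log2 8.38 ± 0.13, SD, n = 3) was near its level at P14 (8.50 ± 0.12). Both departures were lost without wild-type replicate 1 (adjusted p = 0.157 for each), without wild-type 3 (0.124), and without transgenic 1 (0.0624), 2 (0.118 for Gli1, 0.0817 for Fst) or 3 (0.144), and without wild-type replicate 2 that of Gli1 was lost (0.0692) and that of Fst kept (0.0304).

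The other called genes split by their values at the earlier ages. Sprr1a stood at 0.21, 0.00 and 1.08 at P6, P14 and P23 (departure 0.97, adjusted p = 0.113), Krt16 at 0.18, -0.01 and 1.69 (1.60, adjusted p = 0.224), Car12 at -0.14, 0.02 and 0.77 (0.83, adjusted p = 0.0647) and Aebp2 at -0.003, -0.16 and 0.55 (0.63, adjusted p = 0.0647). The largest difference of these 4 before telogen was 0.215 (Sprr1a at P6), and their departures did not pass. Sprr1a was among the brightest probe sets (99.8 percentile of mean signal). At P14 its mean log2 signal was 15.684 in wild type and 15.685 in transgenic skin. Whether signals this bright can still show a genotype difference was not tested. In wild type all 4 were lower at P23 than at P14, Sprr1a by a log2 change of -4.20, Krt16 by -3.08, Car12 by -1.23 and Aebp2 by -1.06. Bnc1 was low at each age (-0.66, -0.44 and -0.67) and was also called at P6 (adjusted p = 0.00554, among 0.0322% of probe sets), and Npnt stood at -0.28, -0.73 and -0.94. Col17a1 was likewise at -0.36, -0.62 and -0.48, and Lmo4 at -0.31, -0.62 and -0.50. Col17a1 passed the threshold at P14 (adjusted p = 0.0149 in limma), though not at P23. For these 4 genes no departure of P23 from the earlier ages passed, with values of -0.11 for Bnc1, -0.43 for Npnt, 0.01 for Col17a1 and -0.03 for Lmo4. Krtap3-1 stood at -0.076, 0.023 and -0.905, with a departure of -0.878 that did not pass (adjusted p = 0.287 in limma). Like Sprr1a it was very bright at P14 (mean log2 15.744 in wild type and 15.767 in transgenic skin), with the same limit. The called probe set of several genes stood at 0.118, 0.819 and 0.762 and also passed at P14 (adjusted p = 0.0427).

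One dim probe set, that of Gsc, separated the genotypes at all 3 ages. Gsc encodes goosecoid, a homeodomain transcription factor of the early embryo and the head. Its probe set lay at the 13.3 percentile of mean signal, below the limit of the test, and came up in the fit of all 12422 probe sets, where 12 were called (0.0966%). Gsc read 5.35, 3.37 and 3.47 in wild type at P23, about the bottom of the scale, and 63.2, 44.8 and 80.8 in transgenic skin. The log2 difference was 3.95 (SE 0.42, adjusted p = 4.81e-05 in limma), and it shrank to 1.05 when 50 was added to all signals to dampen dim readings (adjusted p = 0.00446). At P6 the 5 wild-type arrays ran from 2.85 to 6.38 and the 5 transgenic arrays from 138 to 230 (5.33, adjusted p = 1.27e-09), and at P14 the ranges were 4.36 to 4.61 and 24.5 to 34.9 (2.77, adjusted p = 0.00497). Gsc was the 1 probe set of 12422 for which all 11 transgenic arrays of the series lay above all 11 wild-type arrays, and 0 lay wholly below. It was called with any 1 of the P23 arrays left out (adjusted p up to 0.00135). No detection calls were used here, so whether the wild-type signal is above background is not known, and whether the transgene carries sequence that this probe set reads was not tested.

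**Figure D4:**
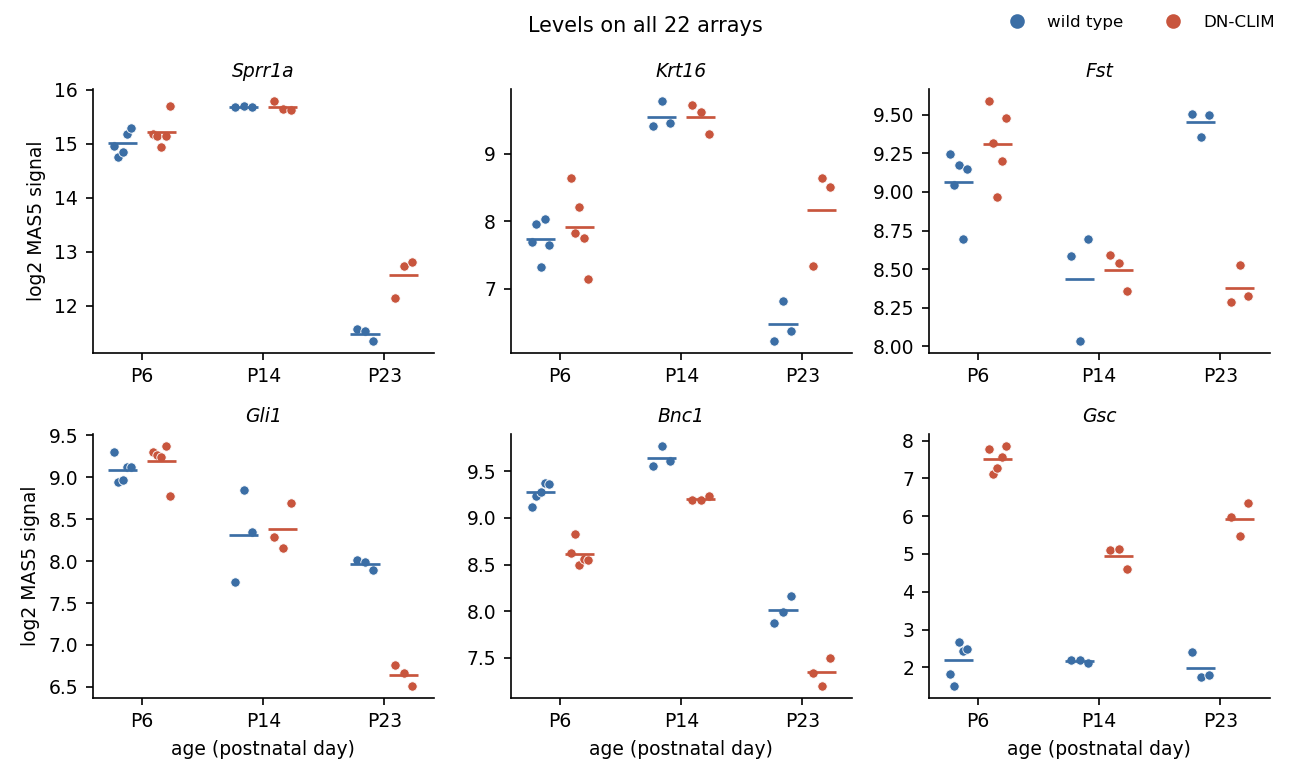
Signal on all 22 arrays (y axis, log2 scale) for Sprr1a, Krt16, Fst, Gli1, Bnc1 and Gsc, by age and genotype (x axis), 1 point per array. Gsc transgenic arrays lie between 24.5 and 230, above the wild-type arrays at 2.85 to 6.38, at all 3 ages.

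The same fit called 3 further dim probe sets at P23. Lfng, a glycosyltransferase that modifies Notch receptors, read 82.2, 158 and 102 in wild type and 50.4, 36.3 and 33.7 in transgenic skin (-1.47, SE 0.27, adjusted p = 0.0234). Ell2, a transcription elongation factor, read 10.8, 11.4 and 12.4 against 36.9, 85.1 and 62.4 (2.33, SE 0.45, adjusted p = 0.0408). Each was lost without 1 array in several runs (4 of 6 for Lfng, up to adjusted p = 0.143, and 5 of 6 for Ell2, up to 0.316), and neither passed with 50 added (0.161 and 0.682). The third, with no gene in the annotation, read 38.9, 27.5 and 23.8 against 200, 149 and 119 (2.37, adjusted p = 0.00696) and passed in all 6 such runs. None of the 3 had such a difference at P6 or P14, where they ranged from -0.30 to 0.47.

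Markers of other cell types were laid beside these results. Of 44 tested dermal matrix genes 4 were higher and 40 lower in transgenic skin (median -0.134). Wholly below wild type lay 12 (27.3%, against 7.21% of all tested probe sets) and wholly above it 0 (against 7.71%). Col14a1, a collagen of fibril surfaces, read 701, 699 and 772 against 531, 583 and 530 (-0.40, adjusted p = 0.57), and no member passed the threshold. The mean log2 signal of the list was 11.14 to 11.22 in wild type and 11.02 to 11.07 in transgenic skin. Dermal papilla and sheath genes were lower in 7 of 10 (median -0.205, list means 8.997 to 9.081 against 8.777 to 8.995), endothelial genes in 10 of 17 (median -0.144, 9.056 to 9.24 against 9.036 to 9.09) and nerve and Schwann cell genes in 6 of 8 (median -0.183, 9.968 to 10.06 against 9.83 to 9.897). Lower too were muscle genes in 26 of 33 (median -0.076) and cell cycle genes in 41 of 57 (median -0.099). Macrophage, dendritic and Langerhans cell genes were lower in 15 of 24 (median -0.063, list means 10.15 to 10.22 against 10.12 to 10.16). On the other side, 12 of 15 cholesterol synthesis genes (median 0.232), 7 of 11 sebaceous gland genes (median 0.077), 12 of 14 interferon and MHC genes (median 0.112), 24 of 34 immediate early genes (median 0.103) and 6 of 7 erythroid genes (median 0.19) were higher. No member of these lists passed, and the part that any of these cells has in the values above was not tested.

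Of the lymphocyte list, 22 of 24 genes on the array were too dim to test. Among these, 2 lay wholly below wild type (the T cell receptor subunits Cd3e, 128, 155 and 220 against 63.2, 63.6 and 58.3, and Cd3g, 90.6, 119 and 107 against 80.5, 55 and 38) and 2 wholly above it (the kinase Zap70, 155, 169 and 191 against 196, 217 and 220, and the interleukin 7 receptor Il7r, 157, 155 and 141 against 168, 197 and 181). These 4 of 22 went both ways, and their share was near the 14.9% of all tested probe sets. The metallothionein genes Mt1 and Mt2, which bind zinc and copper, and Slc39a8, a zinc importer, were also on the low side. Mt1 read 3753, 2836 and 4518 against 2227, 2287 and 2726 (-0.60, adjusted p = 0.265), Mt2 9230, 8389 and 9633 against 6745, 6578 and 7511 (-0.39, adjusted p = 0.265) and Slc39a8 195, 154 and 244 against 113, 107 and 155 (-0.66, adjusted p = 0.155). Gjb2, the connexin of epidermal gap junctions, came nearest to passing among the genes that did not, with 240, 338 and 250 against 374, 454 and 388 (0.57, adjusted p = 0.0607). Of the 30 genes with the smallest p, 13 were higher and 17 lower. Arrays did not overlap for 26 of them, against 14.9% of all tested probe sets, a count that follows from their choice by p in the same contrast.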

How the data were processed

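Each of the 22 arrays was hybridised with labelled total RNA of back skin. The authors deposited 1 intensity per probe set and array, a MAS5 signal on the linear scale. The submitters' processing notes name MAS5; no source used here gives its version. These intensities had a 2% trimmed mean of 500.25 to 500.26 on the P23 arrays, which shows scaling of every array to a common level.

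Signals were taken as log2 values with no further normalization. Of 12488 probe sets 66 were array controls and were left out. Of the other 12422, the platform annotation gave 1 gene for 10833, several for 396 and none for 1193. Tests covered the 6211 probe sets (4900 genes) with a mean of at least log2 7.67, a signal of 203, over the 22 arrays. This mean spans all ages, so a gene bright at P6 or P14 was tested at P23 even where it was dimmer there. At P23 the transgenic arrays of Gli1, Bnc1 and Krtap3-1 and all arrays of Krtap6-2 were below 203. So were the wild-type arrays of Krt16 (74.9, 113 and 82.8) and its transgenic replicate 1 (162), so the Krt16 fold is measured from a dim baseline. The model (limma 3.58.1, R 4.3.3) had a mean for each of the 6 groups and eBayes with a trend, so that the groups share an estimate of the spread, and p-values were adjusted by Benjamini-Hochberg over the 6211 with a threshold of 0.05. A list's gene is its brightest probe set. Precision is limited by the number of arrays. In simulated data with 200 probe sets changed, the P23 contrast on the 6211 probe sets called 20.9% of changes of 0.5, 77.6% of changes of 1 and 100% of changes of 1.5 (log2), with 8 false calls. The adjustment is stricter when fewer probe sets pass, and 10 passed in the real contrast. The simulated shares can therefore overstate what the real contrast recovers. Promoter windows of 250 bases came from a RefSeq table (GRCm38.p6), which held 6 of the 9 called genes.

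The genes, lists and tests were chosen with earlier results of these data known. Named were the genes past the threshold, those with the next smallest p up to 30, in each list up to 3 members ranked by p, and a set of fixed genes and markers. Cdsn, Col4a1, Col4a2, Cxcl14, Dhh, Ell2, Gsc, Il7r, Itga6, Itgb4, Lamb3, Lfng, Nfatc1, S100a8 and Zap70 were named after their values were seen. Alternatives tried were the filter, an added signal of 50, quantile normalization, no trend, array weights, the P23 arrays alone, the replicate block, sex as a covariate and leaving out each array.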

Additional observations from a re-analysis of the deposited data

Results flagged for a closer look

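In the main fit the genotype difference of 2 genes passed a test of dependence on age. The Gli1 difference at P23 departed from the mean of those at P6 and P14 by -1.395 (log2), and that of Fst by -1.228. Against P6 alone the Fst difference departed by -1.322. The 2 departures from the mean passed the threshold in limma (adjusted p = 0.0438 for Gli1 and 0.0437 for Fst), as 0.0322% of probe sets did. The Fst departure from P6 had an adjusted p of 0.0394, in a contrast where 0.0161% passed. With no filter (0.068), with the sex class as a covariate (0.0658) or with the replicate block (0.121), both departures from the mean were lost. Without 1 array, that of Gli1 was lost in 6 of 6 runs and that of Fst in 5 of 6. All 3 transgenic arrays lay below all 3 wild-type arrays for both genes at P23, which follows largely from their small p in that contrast. No cause was tested.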

How the results depend on the processing

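The count of 10 called probe sets at P23 was 2 with a filter that kept the 25% brightest probe sets, 17 with quantile normalization, 44 with array weights (24 higher and 20 lower, with all 10 among them) and 3 in a fit of only the P23 arrays, all of them lower (Gli1, Fst and Npnt). It was 12 with no filter, and 7 with 50 added to each signal. Leaving out 1 of the 6 arrays gave 2 (without wild-type replicate 3) to 16 (without wild-type replicate 2). The count of 2 departures from the earlier ages was 0 with no filter, 0 with the 25% brightest, 1 with 50 added, 7 with quantile normalization, 20 with array weights, 0 with the sex class as a covariate, 0 to 5 without 1 array and 6 without transgenic P6 replicate 5, a setting chosen after seeing the data, as was a fit of the P14 and P23 arrays alone. With the replicate block the counts were 1 (Sprr1a) and 0, and the other 8 genes missed the threshold, Gli1 and Fst at 0.0539 and the rest at 0.0653 to 0.259. Same-numbered arrays of the 2 genotypes had correlations of 0.136, 0.0563 and 0.249 of their deviations. Each was above those of differently numbered arrays, which ran from -0.177 to 0.0509. The labels do not say whether the numbers pair the arrays, and the main fit did not pair them.

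With 50 added, Krt16 (0.0543), Bnc1 (0.0651) and Krtap3-1 (0.146) did not pass at P23. With no filter Krtap3-1 (0.0767) was lost too. Of 1017 values for single genes at P23, 910 kept direction and side of the threshold, 53 lost the threshold and 37 gained it. All 53 losses were of genes called in the main fit. Krtap3-1 lost its call in 12 of 17 settings, Aebp2 in 8 of 17, Krt16 and Bnc1 in 7 of 16 each, and Gli1 in 2 of 16. Genes not called had no call to lose, so the 910 values do not measure how stable the calls were. The 17 that changed sign were of genes that stood near 0: without 1 array Sprr1b ranged from -0.136 to 0.135, Acvr2b from -0.164 to 0.019, Itga6 from -0.16 to 0.132, Itgb4 from -0.03 to 0.118, Lamb3 from -0.009 to 0.118, Ldb1 from -0.016 to 0.161, Ldb2 from -0.122 to 0.096, Junb from -0.092 to 0.069, Smo from -0.17 to 0.061 and Acta1 from -0.143 to 0.016 (0.045 with quantile normalization). The dimmest signals carry no detection calls, which limits what can be said of genes below the filter.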

Other observations

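Genes outside the lists of skin cell types also parted the genotypes at P23 without passing the test. Col11a1, a minor fibrillar collagen of cartilage and tendon, read 179, 219 and 168 in wild type and 19.3, 86.9 and 103 in transgenic skin (log2 difference -1.75, adjusted p = 0.237 in limma). Ywhag, a 14-3-3 adaptor protein, read 5551, 5891 and 3830 against 8400, 8275 and 8514 (0.75, adjusted p = 0.154), and Tnk2, a tyrosine kinase, read 432, 443 and 520 against 639, 693 and 620. Defb1, an antimicrobial defensin, read 552, 558 and 610 against 304, 377 and 322 (-0.78, adjusted p = 0.134), and Rflnb, a filamin-binding protein, 1490, 1639 and 1457 against 1056, 1114 and 982 (-0.54, adjusted p = 0.275). For these 5 genes, picked by small p, no transgenic array overlapped the wild-type arrays, which was so for 14.9% of all tested probe sets. A second, dimmer Ywhag probe set did overlap (231, 277 and 222 against 310, 328 and 273). The Col11a1 difference rested largely on the array at 19.3, with -0.989 without it, and reached -2.194 without transgenic replicate 3.

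Some named genes lay higher without passing. Hspa8, a constitutive chaperone, read 3065, 2033 and 3467 against 3678, 3576 and 4321 (0.47), and the early response gene Ier3 read 641, 577 and 642 against 1025, 760 and 843 (0.49). Alas2, which starts heme synthesis in the red cell lineage, read 138, 203 and 184 against 303, 313 and 243 (0.72, adjusted p = 0.326), and Hba-a1, an alpha globin, 5393, 7226 and 5486 against 9221, 8939 and 7691 (0.52). Acly, which makes acetyl-CoA for lipid synthesis, read 2710, 4291 and 3754 against 4327, 5872 and 4355 (0.45). None of these passed the threshold. Junb gave unlike answers at its 2 tested probe sets, -0.02 at the brighter and -0.84 at the dimmer.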
